A study of Mus musculus with 6 samples.

Results

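The 41 genes described here belong to the interferon response and to MHC class I antigen presentation. They were chosen by gene symbol from the table of transcript levels, and all 41 were found among its 23366 gene symbols. RNA-seq was carried out on epithelial cells of the submandibular salivary gland from adult mice aged 12 weeks, with 3 libraries of p63 knockout (p63KO) and 3 of wild-type (WT) animals. Trp63 encodes p63, which basal cells of epithelia need to keep dividing, and the study asked how it acts in salivary progenitor cells. The labels name no Cre driver, promoter, deleted exons or strain for the knockout, and they do not say whether a library came from 1 mouse or from several. Values are TPM, a level per transcript length in which each library sums to 1000000, so the depth of each library is unknown and no counting intervals can be given.

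Interferons are secreted proteins that warn cells of infection. Types I and III act through receptors that activate transcription factors, STAT2 and IRF9 among them, which bind a promoter sequence called the interferon-stimulated response element. Type II interferon, made mostly by T and NK cells, raises IRF1, NLRC5 and through them the machinery of MHC class I. That machinery cuts proteins in the immunoproteasome, carries the peptides into the endoplasmic reticulum with the TAP transporter, and loads them onto a class I heavy chain paired with beta-2 microglobulin. Epithelial cells keep a low level of many of these genes without infection, and white blood cells keep a higher one.

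Trp63 itself was low in all libraries, at 1.59, 0.816 and 1.76 TPM in p63KO libraries 1, 2 and 3 and at 3.48, 1.85 and 3.68 TPM in WT libraries 1, 2 and 3. Its log2 fold change was -0.74 (SE 0.27, limma adjusted p = 0.27), with no overlap, and without knockout library 3 it passed at -0.85 (adjusted p = 0.040). Since the deleted exons are not given, its summed level is a weak check of the genotype. Knockout library 3 stood apart from the other knockout libraries. Over the 11268 genes tested, its log2 levels correlated at 0.951 to 0.963 with the wild-type libraries and at 0.893 to 0.897 with knockout libraries 1 and 2, which correlated at 0.958 with each other. The 50 most abundant genes took 80.3% of its TPM, against 69.2% to 75.9% in the other libraries, and its median-of-ratios size factor was 0.760, against 0.954 to 1.19. The labels were kept as deposited, and whether the genotype or the recombination of that library differs from its label was not tested. Results are therefore given with all 6 libraries and, for the genes described whose call changes, also without knockout library 3. A gene was tested where at least 3 libraries reached 1 TPM, with limma on log2(TPM + 1) over all such genes, Benjamini-Hochberg adjustment over all of them and a threshold of 0.05. A log2 fold change is knockout over wild type on that scale, and it understates the change of low genes.

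Interferon response and class I genes had mixed directions in the knockout, and none passed. Of the 41 genes, 36 were tested and 0 passed in limma's test, where 0.390% of all genes tested passed (0.071% higher and 0.319% lower). At an unadjusted p under 0.05 there were 0 higher and 6 lower of the 36 (16.7%), where 4.99% of all genes tested were higher and 10.5% were lower. The knockout and wild-type values did not overlap for 7 of the 36, all of them lower in the knockout (19.4%, against 15.6% of all genes tested that were lower without overlap, 5.42% that were higher and 21.1% in either direction). These 7 were Bst2, Gbp2, Gbp3, Nlrc5, Psmb9, Psmb10 and Ifi35. After median-of-ratios scaling, which moved the split of all genes tested to 14.6% higher and 13.8% lower, 8 of the 36 were lower without overlap and 0 were higher. These 8 were the 7 above without Ifi35 and with B2m and Ifit3. The median log2 fold change of the 36 genes was -0.10, beside 0.09 over all genes tested. Of the 36, 13 had positive (36.1%, against 57.4% of all genes tested) and 23 negative log2 fold changes.

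**Figure D1:**
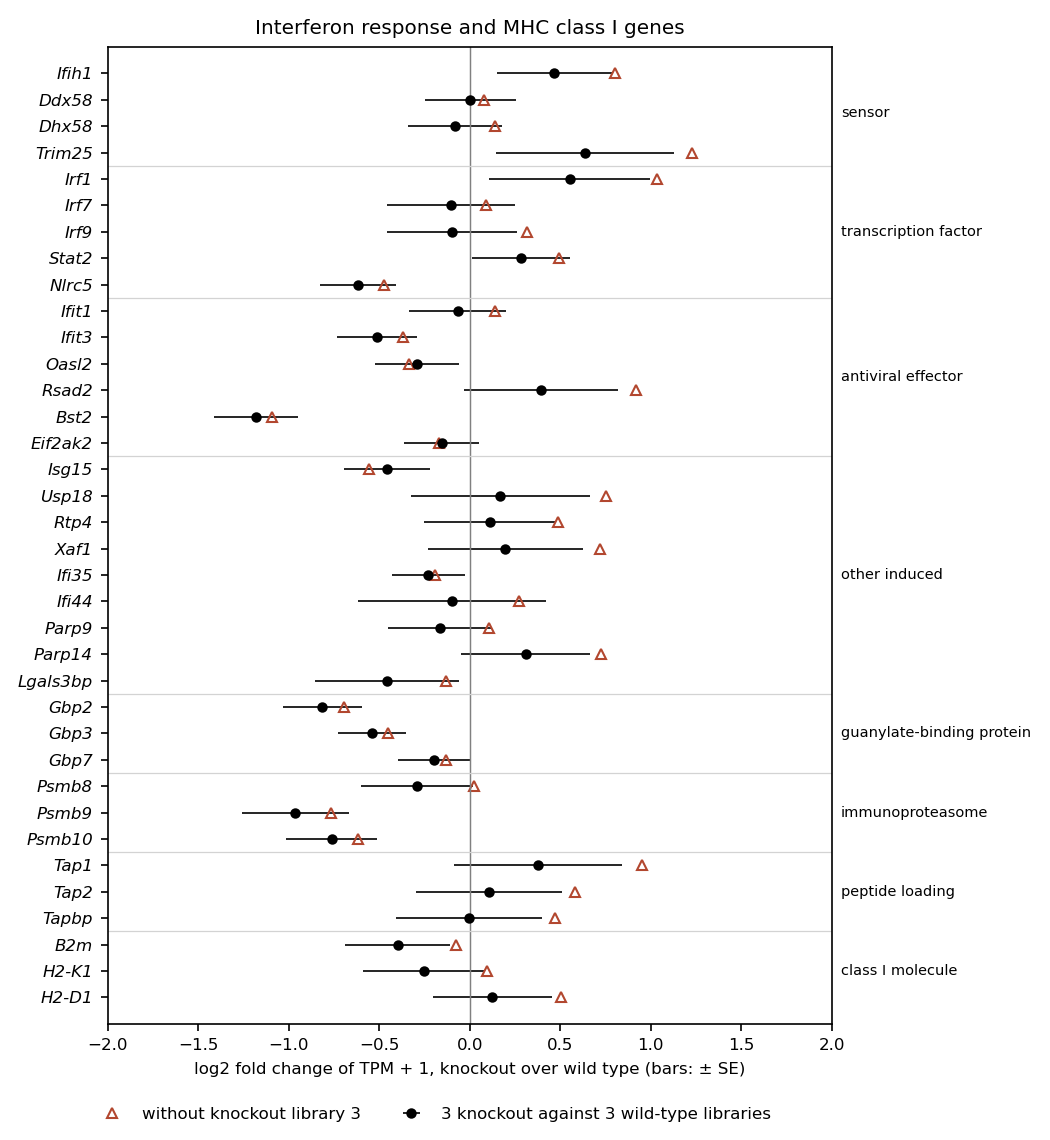
Log2 fold change (horizontal axis, knockout over wild type, on the TPM + 1 scale) of the 36 genes tested, grouped by role. Black points with bars are the estimate and its SE from 3 knockout and 3 wild-type libraries, and open triangles are the estimate without knockout library 3. Bst2, Gbp2, Psmb9 and Psmb10 lie below 0 both ways, while Tap1, Trim25, Irf1 and Rsad2 move further above 0 without that library.

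The knockout libraries split over these genes. As log2 differences from the mean of the WT libraries, the median of the 36 genes was 0.30, 0.05 and -0.71 in knockout libraries 1, 2 and 3, and that of all genes tested was 0.27, 0.24 and -0.29. Knockout library 3 was the lowest of the 6 libraries for 28 of the 36 genes (77.8%), against 52.7% of all genes tested. Its larger share of TPM in the 50 most abundant genes moves with this count, and its part was not tested. In 12 of the 36 genes (33.3%, against 30.3% of all genes tested) knockout libraries 1 and 2 lay above every wild-type library while knockout library 3 lay below every one. These were Ifih1, Trim25, Irf1, Irf9, Rsad2, Usp18, Xaf1, Parp14, Tap1, Tap2, Tapbp and H2-D1. This order was counted on TPM as deposited, not after median-of-ratios scaling, which raises knockout library 3 (size factor 0.760). Without knockout library 3, 14 of the 36 passed limma's test, where 45.5% of all genes tested passed. There were 10 higher (27.8%, against 33.8% of all genes tested) and 4 lower (11.1%, against 11.7%). The 4 lower genes were Bst2, Gbp2, Psmb9 and Psmb10, and the 10 higher were Ifih1, Trim25, Irf1, Rsad2, Usp18, Xaf1, Parp14, Tap1, Tap2 and H2-D1. These shares were near or below those of all genes tested. With array weights, which let limma give each library its own weight, 14 of the 36 also passed, where 42.8% of all genes did (8 higher, against 30.9% of all genes, and 6 lower, against 11.9%). Without knockout library 3 the median of the 36 was 0.10, beside 0.26 over all genes.

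**Figure D2:**
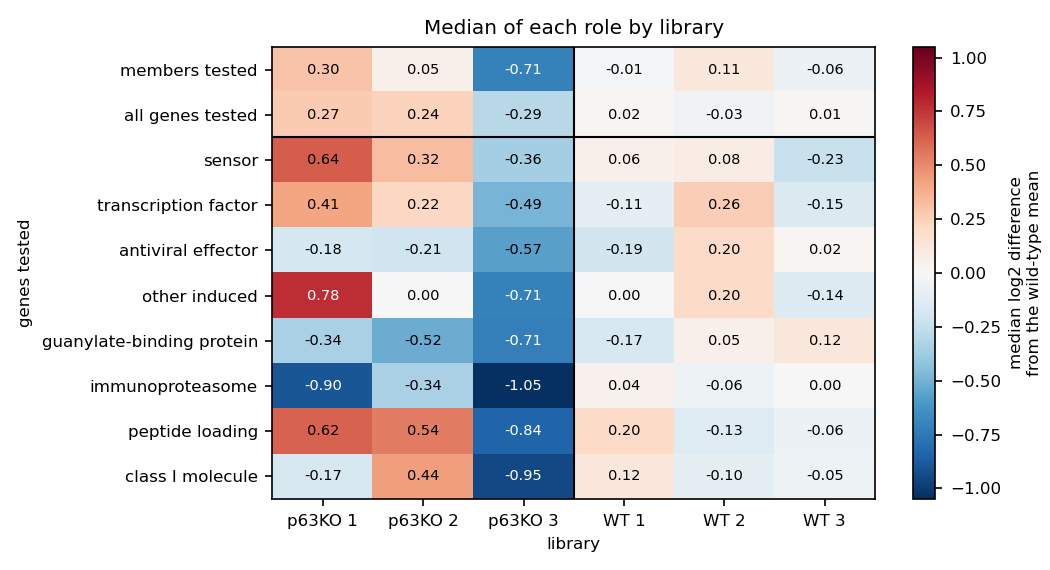
Median log2 difference from the wild-type mean (colour and printed value, log2(TPM + 1) scale) for the 36 genes, for all genes tested and for the tested genes of each role, in each library (columns, knockout left of wild type). Medians of immunoproteasome, guanylate-binding protein and antiviral effector genes are below 0 in all 3 knockout libraries. For antiviral effectors, WT library 1 is as low (-0.19) as knockout libraries 1 and 2 (-0.18 and -0.21). That of peptide-loading genes is above 0 in knockout libraries 1 and 2 and at -0.84 in knockout library 3.

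Hardly any interferon transcript was present. Of 11 interferon genes, 9 were listed at 0 in all 6 libraries, including Ifnb1, which encodes interferon beta. Ifng, encoding type II interferon, was listed at 0 in the 3 knockout libraries and at 0.0960, 0.0566 and 0 TPM in WT libraries. Ifnk reached at most 0.141 TPM in any library. A value of 0 in this table may be a failed estimate as well as a missing transcript.

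Receptors were measured in every library and did not pass. The 6 receptor genes ran from 1.68 to 43.1 TPM, and 0 of the 6 passed with all libraries. The type III interferon receptor chain gene Ifnlr1, whose expression is largely epithelial, had the largest log2 fold change among them. Its level was 10.4, 12.6 and 1.68 TPM in p63KO libraries and 1.96, 2.66 and 2.15 TPM in WT libraries. Its values were high in 2 knockout libraries and lowest of all in the remaining one, with a log2 fold change of 1.20 (SE 0.57, limma adjusted p = 0.36). Without knockout library 3 it passed at 1.94 (SE 0.17, adjusted p = 0.00054).

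Among signalling genes downstream of the receptors, 0 of 9 tested passed. Socs3, a feedback inhibitor of cytokine receptors, was the gene of this class with the largest log2 fold change. It stood at 3.29, 5.36 and 1.09 TPM in p63KO cells and 0.680, 0.627 and 0.598 TPM in WT cells, with no overlap (log2 fold change 1.24, SE 0.38, adjusted p = 0.19, and 1.68 with adjusted p = 0.0012 without knockout library 3). Socs3 reached 1 TPM only in the p63KO libraries, so it entered the test only through the group where it was high.

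The sensor genes encode proteins that detect viral nucleic acid or switch those detectors on. Trim25, a ubiquitin ligase that activates the RNA sensor RIG-I, stood at 18.9, 12.7 and 3.83 TPM in p63KO libraries 1, 2 and 3 and at 6.68, 6.59 and 5.03 TPM in WT libraries. The groups overlapped because knockout library 3 was the lowest of all, and the log2 fold change was 0.63 (SE 0.49, limma adjusted p = 0.51). Without that library it passed at 1.23 (SE 0.21, adjusted p = 0.0039). The RNA sensor gene Ifih1, encoding MDA5, had the same split of the knockout libraries, at 7.55, 6.24 and 2.90 TPM in p63KO cells and 3.46, 3.66 and 3.39 TPM in WT cells (log2 fold change 0.47, SE 0.32, adjusted p = 0.46, and 0.80 with adjusted p = 0.0056 without knockout library 3). The related sensor gene Ddx58, encoding RIG-I, did not differ beyond its spread, at 3.36 ± 0.964 TPM in p63KO cells and 3.33 ± 0.767 TPM in WT cells (SD, n = 3 each, adjusted p = 0.99). Dhx58, encoding the related protein LGP2, averaged 2.01 ± 0.829 TPM in p63KO cells and 2.12 ± 0.466 TPM in WT cells. The Z-nucleic acid sensor gene Zbp1 was too low to be tested, at 0.0584, 0.193 and 0.0725 TPM in p63KO cells and 0.482, 0.916 and 0.301 TPM in WT cells, with no overlap.

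Of the 5 transcription factor genes, only Nlrc5 had values that did not overlap. Nlrc5, the transactivator of class I genes, stood at 1.00, 1.40 and 0.632 TPM in p63KO libraries and at 1.78, 2.46 and 1.92 TPM in WT libraries. All knockout values were thus below the lowest wild-type value, but the gene did not pass (log2 fold change -0.61, SE 0.21, limma adjusted p = 0.24). Knockout library 3 was under 1 TPM, so Nlrc5 entered the test through the WT libraries, where it was high. Irf1, a factor induced by type II interferon, went the other way in knockout libraries 1 and 2. Its levels were 8.95, 16.2 and 3.78 TPM in p63KO cells and 4.93, 6.63 and 4.75 TPM in WT cells (log2 fold change 0.55, SE 0.45, adjusted p = 0.52, and 1.04 with adjusted p = 0.016 without knockout library 3). Irf9, a DNA-binding partner of STAT2, was the most abundant of the 5 and averaged 12.4 ± 5.65 TPM in p63KO cells and 12.3 ± 1.02 TPM in WT cells. Stat2 averaged 9.63 ± 2.49 TPM in p63KO cells and 7.65 ± 1.66 TPM in WT cells, and Irf7, the factor that amplifies type I interferon, averaged 4.28 ± 1.42 TPM in p63KO cells and 4.83 ± 2.06 TPM in WT cells (SD, n = 3 each). Of the other interferon regulatory factors, Irf8, a factor of macrophages and dendritic cells, had the largest log2 fold change. It measured 6.70, 8.54 and 7.10 TPM in p63KO cells and 16.7, 16.4 and 17.5 TPM in WT cells (log2 fold change -1.09, SE 0.20, adjusted p = 0.068, and -1.06 with adjusted p = 0.0020 without knockout library 3).

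Bst2, which encodes tetherin, a membrane protein that holds budding viruses at the cell surface, had the largest log2 fold change in size among the 36 genes. It stood at 9.40, 7.35 and 6.75 TPM in p63KO libraries and at 16.0, 22.6 and 18.5 TPM in WT libraries. Every knockout library lay below every wild-type library, knockout library 3 among them. The log2 fold change was -1.18 (SE 0.23, limma adjusted p = 0.076), just short of the threshold. Over the 17 alternatives it stayed between -1.33 and -1.06, with adjusted p from 0.0021 to 0.33. It passed in 2 of them, with array weights and without knockout library 3. Bst2 is known as a surface marker of plasmacytoid dendritic cells in mice, as well as an interferon-induced gene of many cells.

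The response element lies just upstream of several of these genes in the reference genome. A match to GAAA, any 2 bases and GAAA again, on either strand, was sought in the 250 bases before each start in RefSeq (GRCm38.p6), a build other than that of the values. Of the 31 genes with a promoter in the table, 11 had a match (35.5%), against 3.46% of all 27025 genes there. The following stretches show the matches of 3 genes with non-overlapping lower values (Bst2, Gbp2 and Gbp3) and of 3 others (Isg15, Rsad2 and B2m). The groups of these 3 others overlapped on TPM as deposited, but those of B2m did not after median-of-ratios scaling. Each stretch is read along the gene's strand with the matched bases in capitals. Matches made of TTTC lie on the opposite strand, and neighbouring matches overlap.
Bst2 (chr8:71537572-71537617, minus strand): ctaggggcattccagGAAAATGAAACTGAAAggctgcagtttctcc
Gbp2 (chr3:142620589-142620628, plus strand): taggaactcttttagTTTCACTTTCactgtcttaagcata
Gbp3 (chr3:142559984-142560029, plus strand): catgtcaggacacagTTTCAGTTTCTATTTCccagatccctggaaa
Isg15 (chr4:156200860-156200911, minus strand): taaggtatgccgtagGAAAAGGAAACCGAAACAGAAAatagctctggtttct
Rsad2 (chr12:26456548-26456587, minus strand): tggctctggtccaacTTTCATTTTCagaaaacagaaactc
B2m (chr2:122147533-122147572, plus strand): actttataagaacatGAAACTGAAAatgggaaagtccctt
Genes with a match thus stood on both sides of wild type in knockout libraries 1 and 2. A match describes the letters only and does not show that a factor binds there.

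The other antiviral effector genes were low. Rsad2, encoding viperin, an enzyme that makes a chain-terminating nucleotide, stood at 3.84, 3.07 and 0.497 TPM in p63KO cells and 0.979, 1.71 and 1.42 TPM in WT cells. Knockout libraries 1 and 2 were the highest and knockout library 3 the lowest, as for Trim25 (log2 fold change 0.39, SE 0.43, limma adjusted p = 0.63, and 0.92 with adjusted p = 0.0091 without knockout library 3). Ifit3, of the family that binds foreign RNA, had the next largest log2 fold change after Bst2 among the effectors. It measured 0.379, 1.01 and 0.235 TPM in p63KO cells and 0.928, 1.40 and 1.14 TPM in WT cells, and knockout library 2 overlapped with wild type (log2 fold change -0.51, SE 0.22, adjusted p = 0.33). After median-of-ratios scaling Ifit3 was lower in every knockout library than in any wild-type library (log2 fold change -0.56, limma adjusted p = 0.18). Its neighbour Ifit1 averaged 1.67 ± 0.738 TPM in p63KO cells and 1.76 ± 0.535 TPM in WT cells. Oasl2, an oligoadenylate synthetase-like gene, averaged 2.35 ± 0.182 TPM in p63KO cells and 3.16 ± 0.898 TPM in WT cells. Eif2ak2, encoding the RNA-activated kinase PKR, averaged 4.72 ± 0.623 TPM in p63KO cells and 5.35 ± 0.349 TPM in WT cells (SD, n = 3 each). Ifit2, Oas1a, Mx1 and Mx2 did not reach the level needed for a test. Oas1a, which makes the messenger that activates RNase L, stood at 0.401, 0.184 and 0.166 TPM in p63KO cells against 0.736, 0.723 and 0.776 TPM in WT cells. Mx1, a dynamin-like antiviral gene, was listed at 0, 0.164 and 0 TPM in p63KO cells and at 0.273, 0.207 and 0.219 TPM in WT cells. Both kept below wild type in every knockout library, while Mx2, its near relative, stood at 1.56, 0.976 and 0.0647 TPM in p63KO cells and 0.191, 0.310 and 0.403 TPM in WT cells. Reads of the Oas1, Ifit and Mx families may be shared between similar copies, so the levels of single members are uncertain.

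Isg15, a ubiquitin-like protein joined to other proteins after interferon, measured 2.67, 2.02 and 3.11 TPM in p63KO cells and 3.06, 4.97 and 3.88 TPM in WT cells. Knockout library 3 just overlapped with the lowest wild-type library (log2 fold change -0.46, SE 0.24, limma adjusted p = 0.38). The gene for its activating enzyme, Uba7, was picked out after its values were seen. It stood at 0.519, 0.748 and 0.942 TPM in p63KO cells against 2.67, 3.20 and 2.16 TPM in WT cells, with no overlap (log2 fold change -1.08, SE 0.20, adjusted p = 0.066, and -1.16 with adjusted p = 0.0033 without knockout library 3). Uba7 reached 1 TPM only in the WT libraries, so it entered the test only through the group where it was high. Usp18, the protease that takes ISG15 off again and damps the type I receptor, had another order of libraries, at 5.13, 3.38 and 0.531 TPM in p63KO cells and 2.16, 2.85 and 1.38 TPM in WT cells (log2 fold change 0.17, adjusted p = 0.87, and 0.76 with adjusted p = 0.045 without knockout library 3).

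Of the remaining induced genes, Ifi35 differed little in size but without overlap on TPM as deposited. It stood at 11.1, 10.5 and 9.91 TPM in p63KO cells and 12.9, 13.5 and 11.1 TPM in WT cells, where the closest values were 11.1 TPM on both sides after rounding (log2 fold change -0.23, SE 0.20, limma adjusted p = 0.55). After median-of-ratios scaling the Ifi35 groups overlapped. Lgals3bp, a secreted glycoprotein that binds galectin-3, averaged 8.24 ± 5.21 TPM in p63KO cells and 10.6 ± 2.21 TPM in WT cells. Xaf1, a pro-apoptotic gene, and Parp14, a mono-ADP-ribosyltransferase, both had the split of Trim25, with Parp14 at 4.69, 3.76 and 1.19 TPM in p63KO cells and 2.16, 2.37 and 1.93 TPM in WT cells. Without knockout library 3, Xaf1 passed at 0.72 (adjusted p = 0.018) and Parp14 at 0.72 (adjusted p = 0.011). Parp9, the partner of the ubiquitin ligase DTX3L, averaged 6.47 ± 2.27 TPM in p63KO cells and 7.11 ± 0.653 TPM in WT cells, and Rtp4 averaged 3.35 ± 1.99 TPM in p63KO cells and 2.77 ± 0.688 TPM in WT cells (SD, n = 3 each). Ifi44 varied within both groups, from 0.323 to 3.21 TPM in p63KO cells and from 0.224 to 2.47 TPM in WT cells. Wild-type library 3 and knockout library 3 held its lowest values.

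**Figure D3:**
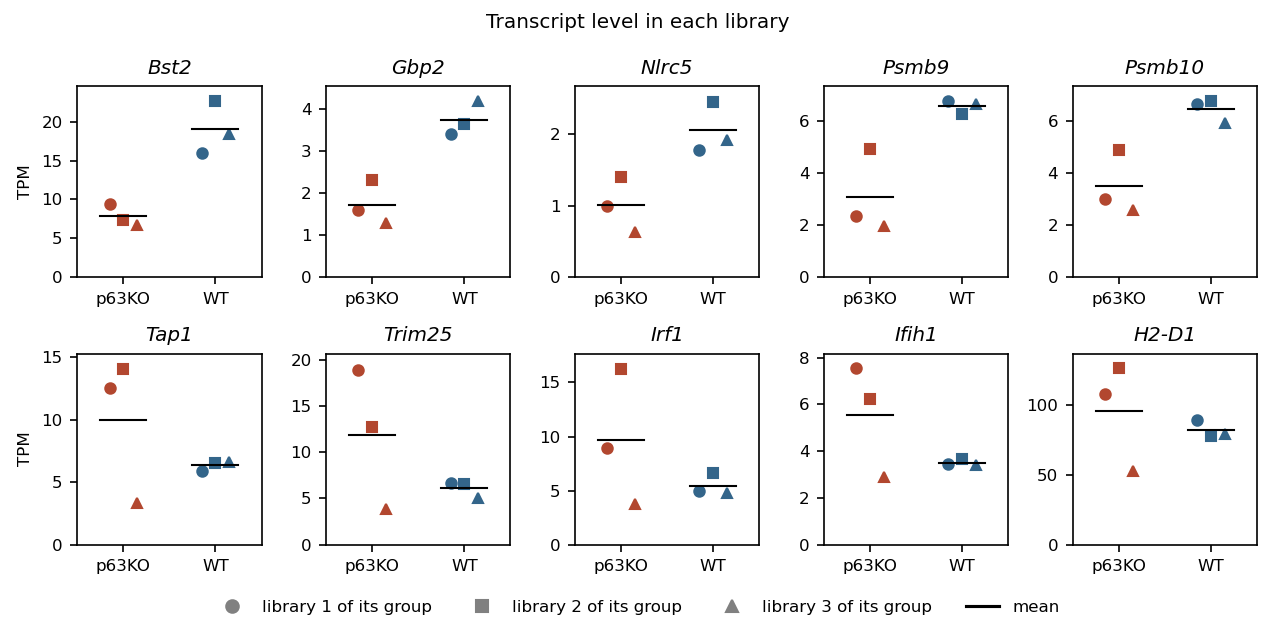
TPM (vertical axes, linear and starting at 0) of 10 genes in each library, with knockout points left of wild-type points and the mean as a line. In the upper row every knockout library is below every wild-type library, and in the lower row knockout libraries 1 and 2 are above and knockout library 3 below all wild-type libraries.

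All 3 guanylate-binding protein genes, which encode GTPases that attack the membranes of intracellular pathogens, had negative log2 fold changes. Gbp2 stood at 1.59, 2.29 and 1.28 TPM in p63KO cells and 3.40, 3.64 and 4.18 TPM in WT cells, with no overlap (log2 fold change -0.81, SE 0.22, limma adjusted p = 0.14, and -0.69 with adjusted p = 0.017 without knockout library 3). Gbp3 stood at 1.29, 0.975 and 0.772 TPM in p63KO cells and 1.58, 2.02 and 2.16 TPM in WT cells, also apart (log2 fold change -0.54, SE 0.19, adjusted p = 0.25). Knockout libraries 2 and 3 were under 1 TPM, so Gbp3 entered the test through the WT libraries, where it was high. Gbp7 overlapped, at 1.21 ± 0.387 TPM in p63KO cells and 1.52 ± 0.247 TPM in WT cells (SD, n = 3 each). The guanylate-binding proteins form a family of similar neighbours on chromosome 3, so how reads were split among them is uncertain.

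Among the immunoproteasome subunits, Psmb9 and Psmb10 differed without overlap and Psmb8 did not. Psmb9 stood at 2.35, 4.92 and 1.94 TPM in p63KO cells and 6.75, 6.27 and 6.66 TPM in WT cells (log2 fold change -0.96, SE 0.30, limma adjusted p = 0.20, and -0.76 with adjusted p = 0.038 without knockout library 3). Psmb10 stood at 2.98, 4.87 and 2.59 TPM in p63KO cells and 6.66, 6.78 and 5.90 TPM in WT cells (log2 fold change -0.76, SE 0.25, adjusted p = 0.23, and -0.62 with adjusted p = 0.038 without knockout library 3). Both were below wild type in every knockout library. Psmb8, the third subunit and the most abundant of them, overlapped, at 10.5, 12.6 and 5.51 TPM in p63KO cells and 12.5, 10.2 and 11.3 TPM in WT cells (log2 fold change -0.29, SE 0.31, adjusted p = 0.62).

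Each of these subunits replaces a constitutive one in the proteasome core, and the ratio within a library does not depend on the library's total. The ratio of Psmb9 to Psmb6, the subunit it replaces, was 0.0304, 0.0662 and 0.0272 in p63KO libraries and 0.0717, 0.0724 and 0.0869 in the wild-type libraries. The ratio of Psmb10 to Psmb7 was 0.0261, 0.0477 and 0.0293 in p63KO cells and 0.0618, 0.0638 and 0.0609 in WT cells. Both ratios were lower in every knockout library than in any wild-type library. The ratio of Psmb8 to Psmb5 was 0.239, 0.253 and 0.113 in p63KO cells and 0.177, 0.152 and 0.192 in WT cells, with knockout libraries 1 and 2 above and knockout library 3 below wild type. Of the 6 constitutive subunit and regulator genes 0 passed. Psme1, for a chain of the interferon-induced proteasome activator, had the largest log2 fold change, at 37.6, 30.5 and 21.5 TPM in p63KO cells and 51.0, 44.0 and 46.7 TPM in WT cells (log2 fold change -0.67, SE 0.24, adjusted p = 0.26, and -0.46 with adjusted p = 0.040 without knockout library 3). Psmb5 was also below wild type without overlap, at 47.4 ± 2.96 TPM in p63KO cells and 65.6 ± 5.93 TPM in WT cells (SD, n = 3 each, log2 fold change -0.46, adjusted p = 0.30, and -0.47 with adjusted p = 0.032 without knockout library 3), so the Psmb8 to Psmb5 ratio rests on 2 levels that both vary.

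Tap1 and Psmb9 start back to back in the MHC region of chromosome 17, but their p63KO libraries were ordered differently against WT. Tap1, a chain of the peptide transporter, stood at 12.5, 14.03 and 3.29 TPM in p63KO cells and at 5.93, 6.55 and 6.62 TPM in WT cells (log2 fold change 0.38, SE 0.46, limma adjusted p = 0.67, and 0.95 with adjusted p = 0.0023 without knockout library 3). Knockout libraries 1 and 2 were above and knockout library 3 below all wild-type libraries. The ratio of Tap1 to Psmb9, a pair chosen after the values were seen, was 5.32, 2.85 and 1.69 in knockout libraries 1, 2 and 3 and 0.878, 1.04 and 0.994 in wild-type libraries. It was thus higher in every knockout library than in any wild-type library, in knockout library 3 as well. With 3 libraries against 3 an exact permutation test could not give a p below 0.1, and none was run on a pair picked for its difference. In RefSeq (GRCm38.p6) the starts of these genes are parted by the 225 bases below, shown because both genes are read outward from them, Tap1 to the right and Psmb9 to the left on the opposite strand. They held no match to the response element pattern on either strand.
Tap1 and Psmb9 (chr17:34187331-34187555, plus strand): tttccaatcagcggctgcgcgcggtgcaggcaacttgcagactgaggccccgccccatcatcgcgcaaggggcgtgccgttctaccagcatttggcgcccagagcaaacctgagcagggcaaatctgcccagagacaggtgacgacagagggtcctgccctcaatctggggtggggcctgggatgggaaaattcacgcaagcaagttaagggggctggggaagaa
These letters say nothing about which factors act on the pair. The authors' gene lengths and strand setting were not given, and a TPM depends on the length used for each gene, but that length is the same in all libraries.

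**Figure D4:**
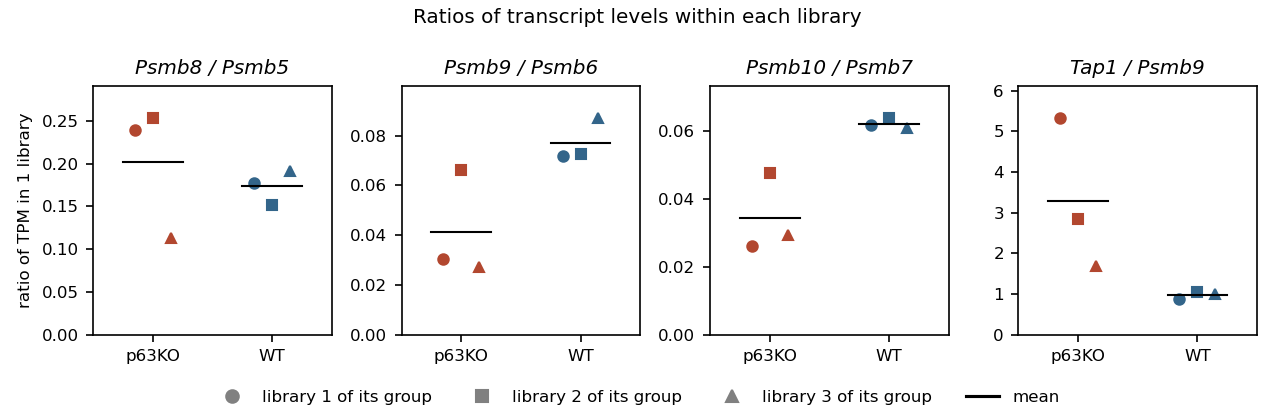
Ratio of TPM within a library (vertical axes, linear and starting at 0) for 4 pairs of genes, knockout points left of wild-type points with the mean as a line. The Psmb9 to Psmb6 and Psmb10 to Psmb7 ratios are lower and the Tap1 to Psmb9 ratio higher in all 3 knockout libraries than in any wild-type library, while the Psmb8 to Psmb5 ratio overlaps.

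The other peptide-loading genes had the split of Tap1, with knockout libraries 1 and 2 above and knockout library 3 below all WT libraries. Tap2, the second chain of the transporter, stood at 15.3, 14.4 and 4.91 TPM in p63KO cells and 11.2, 8.67 and 9.15 TPM in WT cells (log2 fold change 0.11, SE 0.40, limma adjusted p = 0.90, and 0.58 with adjusted p = 0.020 without knockout library 3). Tapbp, encoding tapasin, which holds the class I molecule at the transporter, stood at 27.9, 23.9 and 9.005 TPM in p63KO cells and 22.3, 16.6 and 16.7 TPM in WT cells (adjusted p = 0.997 with all libraries, and 0.063 without knockout library 3). Of 5 other loading chaperone and trimming genes 0 passed with all libraries. Calr, the calcium-binding chaperone calreticulin, had the largest log2 fold change, at 172, 97.4 and 312 TPM in p63KO cells and 443, 290 and 366 TPM in WT cells. Here knockout library 3 was the one that overlapped with wild type (log2 fold change -1.05, SE 0.40, adjusted p = 0.28, and -1.47 with adjusted p = 0.0058 without it).

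The class I molecules were the most abundant of the 41 transcripts, and their groups overlapped on TPM as deposited. B2m, encoding beta-2 microglobulin, measured 512, 584 and 280 TPM in p63KO libraries and 603, 519 and 613 TPM in WT libraries (log2 fold change -0.40, SE 0.29, limma adjusted p = 0.48). After median-of-ratios scaling B2m was lower in every knockout library than in any wild-type library (log2 fold change -0.45, limma adjusted p = 0.20). The classical heavy chain gene H2-K1 measured 289.5, 468 and 178 TPM in p63KO cells and 382, 321 and 333 TPM in WT cells (log2 fold change -0.25, SE 0.34, adjusted p = 0.70). H2-D1, the other classical heavy chain gene, measured 107, 126 and 52.7 TPM in p63KO cells and 89.3, 77.9 and 79.1 TPM in WT cells (log2 fold change 0.13, SE 0.33, adjusted p = 0.85, and 0.50 with adjusted p = 0.027 without knockout library 3). Knockout library 3 held the lowest level of all 3 genes. Class I heavy chain genes are close copies that differ between mouse strains, and how reads that match several genes were counted is not given in the sources used here, so the split between H2-K1, H2-D1 and the others is uncertain. Of 11 other class I genes tested 0 passed, and H2-T24, with the largest log2 fold change, averaged 1.97 ± 1.27 TPM in p63KO cells and 3.36 ± 0.294 TPM in WT cells (SD, n = 3 each).

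Beyond the 41 genes, 115 others of the pathway were in the table and 84 were tested. Of these 0 passed in limma's test, with 3 higher (3.57%, against 4.99% of all genes tested) and 14 lower (16.7%, against 10.5%) at an unadjusted p under 0.05. The knockout was lower without overlap for 15 (17.9%, against 15.6% of all genes tested) and higher for 2 (2.38%, against 5.42%), Socs3 and Ifi30. Without knockout library 3, 22 passed as higher (26.2%, against 33.8% of all genes tested) and 13 as lower (15.5%, against 11.7%). Of 31 other induced genes tested, Phf11d, of a family of PHD finger genes, had the largest log2 fold change, at 17.5, 14.5 and 2.16 TPM in p63KO cells and 2.24, 3.28 and 1.58 TPM in WT cells (log2 fold change 1.56, SE 0.64, adjusted p = 0.31, and 2.36 with adjusted p = 0.00072 without knockout library 3). Among 9 adaptor genes of nucleic acid sensing, Ikbke, a kinase that activates interferon regulatory factors, was lower in every knockout library, at 1.26, 0.630 and 1.42 TPM in p63KO cells against 2.46, 3.01 and 2.39 TPM in WT cells (log2 fold change -0.80, SE 0.22, adjusted p = 0.15, and -0.91 with adjusted p = 0.010 without knockout library 3). Knockout library 2 was under 1 TPM, so Ikbke also entered the test through the WT libraries, where it was high.

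Summed markers of macrophages, dendritic cells, T and NK cells, which express many of these genes, were lower in all 3 knockout libraries than in any WT library. The summed level of 19 macrophage and dendritic cell markers was 269 to 421 TPM in p63KO cells and 687 to 805 TPM in WT cells, and 12 of 18 tested were lower without overlap (66.7%, against 15.6% of all genes tested) while 0 were higher. The list holds 4 genes of MHC class II presentation, which interferon also induces, and these summed to 58.1 to 201 TPM in p63KO cells and 371 to 486 TPM in WT cells. The other 15 summed to 194 to 220 TPM in p63KO cells and 305 to 319 TPM in WT cells, a split made after the values were seen. The genes C1qa, C1qb, Mrc1, Itgam, Cd68 and Laptm5 of this list overlapped, with log2 fold changes of -0.13, -0.25, 0.06, 0.16, -0.60 and -0.24. Lyz2, the macrophage lysozyme, stood at 44.5, 48.3 and 38.3 TPM in p63KO cells and 87.6, 99.6 and 95.5 TPM in WT cells (log2 fold change -1.10, limma adjusted p = 0.059, and -1.01 with adjusted p = 0.0016 without knockout library 3). Siglech, a defining marker of plasmacytoid dendritic cells, stood at 0.263, 0.145 and 0.131 TPM in p63KO cells and 2.85, 1.54 and 1.43 TPM in WT cells (log2 fold change -1.29, adjusted p = 0.059, and -1.26 with adjusted p = 0.0062 without knockout library 3). Like Uba7, Siglech entered the test only through the WT libraries, where it was high. The 5 plasmacytoid markers besides Bst2 summed to 25.9 to 39.7 TPM in p63KO cells and 78.3 to 106 TPM in WT cells. Most of the WT sum was Ly6d, which epithelial cells also express, and the other 4 summed to 12.2 to 19.8 TPM in p63KO cells and 23.4 to 25.2 TPM in WT cells. Most of that smaller WT sum was Irf8, also a factor of macrophages. Irf8 stood at 6.70, 8.54 and 7.10 TPM in p63KO cells and 16.7, 16.4 and 17.5 TPM in WT cells. Among the same 4, Tcf4 overlapped, at 11.0, 11.0 and 4.90 TPM in p63KO cells and 5.40, 5.42 and 5.96 TPM in WT cells. Without knockout library 3 Tcf4 passed as higher (log2 fold change 0.86, limma adjusted p = 0.0029), and Ccr9 overlapped. The 12 T and NK cell markers summed to 1.18 to 3.02 TPM in p63KO cells and 5.07 to 8.11 TPM in WT cells. Only 1 of the 12, Nkg7, was tested, and it reached 1 TPM only in WT libraries. Of the 12, 6 were lower without overlap and 0 higher, while Cd3d, Cd3e, Cd3g, Cd4, Cd8a and Klrb1c overlapped. With no filter on low values, 2467 of 18137 genes were lower without overlap. The highest value of any of the 12 was 1.76 TPM, so these levels lie near the floor. The sums of the 6 B and plasma cell markers overlapped, at 6.99 to 32.7 TPM in p63KO cells and 21.8 to 80.1 TPM in WT cells. The B cell marker Ms4a1 was at 0 or no more than 0.158 TPM in any library. Endothelial markers summed to 33.9 to 41.4 TPM in p63KO cells and 44.0 to 52.9 TPM in WT cells. Of 9 tested, 4 were lower without overlap and 0 higher, and Pecam1, Cdh5, Vwf and Esam had positive log2 fold changes. Without knockout library 3, 4 of the 9 passed as lower and Pecam1 as higher (log2 fold change 0.47, limma adjusted p = 0.029). Over all genes tested, 11.7% passed as lower and 33.8% as higher. Fibroblast markers summed to 129 to 268 TPM in p63KO cells and 277 to 355 TPM in WT cells. Dcn made up the largest share of these sums and overlapped, as did Pdgfra, while the other 4 were lower without overlap. The 6 epithelial markers, Epcam and keratin genes among them, summed to 709 to 1676 TPM in p63KO cells and 964 to 1134 TPM in WT cells. Krt18 made up the largest share of the knockout sums, at 907, 1059 and 272 TPM in p63KO libraries and 411, 379 and 368 TPM in WT libraries, and knockout library 3 had the lowest sum. Krt7 and Krt19 were lower in all 3 knockout libraries than in any WT library, and Epcam overlapped, at 128 to 200 TPM in p63KO cells and 172 to 232 TPM in WT cells, so this defining marker of the labelled cell type was present in every library. In such bulk samples fewer cells of a type and less RNA per cell cannot be told apart, and the part of these cell types in the levels of Bst2, Gbp2, Nlrc5, Psmb9 and Psmb10 was not tested.

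**Figure D5:**
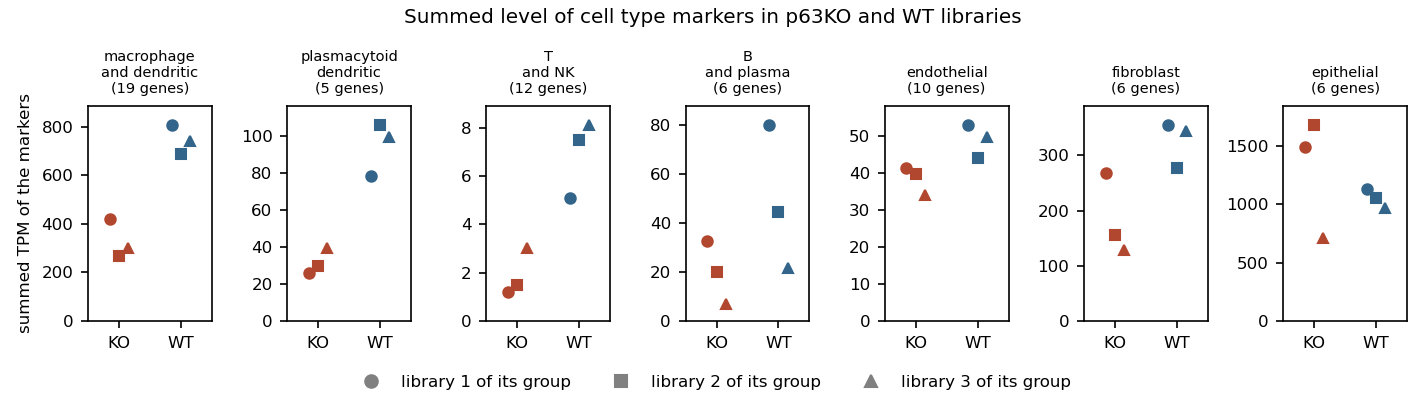
Summed TPM (vertical axes, linear and starting at 0) of marker genes of 7 cell types in each library, knockout (KO) points left of wild-type (WT) points. Macrophage and dendritic, T and NK, plasmacytoid dendritic, endothelial and fibroblast sums are lower in every knockout library than in any wild-type library, and the epithelial sum is above wild type in knockout libraries 1 and 2 and below it in knockout library 3. Bst2, though a marker of plasmacytoid dendritic cells, was left out of its sum.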

How the data were processed

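The authors deposited TPM, raw counts adjusted for the length of each gene and the size of each library, per the labels. The build mm9 and the tools DESeq2 1.20.0, featureCounts 1.5.1, TopHat2 2.1.1 and Bowtie2 2.2.6 are named in the submitters' processing notes. The gene annotation, strand setting and treatment of reads matching several genes are not given in the sources used here. Groups came from the genotype label, and replicate numbers only name libraries. The labels do not say that libraries came from separate mice, and p-values then reflect only how much these 6 libraries vary, which may be technical. Limma 3.58.1 in R 4.3.3 was run on genes that reached 1 TPM in 3 or more libraries (log2(TPM + 1), mean-variance trend, two-sided). The procedure was tested on simulated data. Figures were drawn with matplotlib 3.10.9.

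The 41 genes and the lists of other pathway and marker genes were chosen with earlier results of these data known. The rule for named genes took every tested gene without overlap, the 2 largest absolute log2 fold changes and the highest mean TPM of each role, and of each other pathway class the largest absolute log2 fold change and the partners in a ratio. All 41 genes were then described; Uba7, Ifi30 and the marker genes were added after their values were seen. Some genes of these lists are counted but not reported here by name. Promoter sequences are RefSeq's, build GRCm38.p6, which was used for no value. Of the 41 genes, 31 had a promoter there. Alternatives were other pseudocounts (0.1 and 0.5 TPM), filters (none, 5 TPM), scalings (median-of-ratios, quantile, without the 50 most abundant genes), limma settings (no trend, robust, array weights), a block for neighbouring index numbers in the titles, and leaving out each library. Leaving out a library for the 4 ratios was added after seeing the data.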

Additional observations from a re-analysis of the deposited data

How the results depend on the processing

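Of the 36 genes tested, 0 passed in every alternative except array weights and the fit without knockout library 3, where 14 passed in each (8 higher and 6 lower with array weights, 10 higher and 4 lower without that library); both settings also moved the count over all genes, to 4822 and 5127 from 44. That count was 25 with a pseudocount of 0.1 TPM, 11 with no filter, 29 with the 5 TPM filter and 72 with quantile normalization, and 0 to 5127 over the fits without 1 library (11, 16 and 5127 without knockout libraries 1, 2 and 3, and 1, 0 and 0 without wild-type libraries 1, 2 and 3). Over these fits 0 to 14 of the 36 genes passed, and 9 to 21 had groups that did not overlap (21, or 58.3%, without knockout library 3, where 67.1% of all genes did not overlap, and 11, or 30.6%, without knockout library 2, against 27.4%). With the 5 TPM filter, which left 19 of the genes, 4 did not overlap (21.1%, against 19.8% of all genes tested). The median log2 fold change of the genes ran from -0.27 without knockout library 1 to 0.10 without knockout library 3. Of 334 refitted values of 20 genes, 303 kept direction and call, 19 passed where the value reported did not, and 12 changed sign. Those 12 were not called: with array weights Irf9 was at 0.25, Psmb8 at 0.027, Tapbp at 0.41 and H2-K1 at 0.17; without knockout library 3 they were at 0.32, 0.023, 0.47 and 0.10; Tapbp was at 0.13 without wild-type library 1; and Tap2 was at -0.076 with quantile normalization, -0.15 without knockout library 1 and -0.11 without knockout library 2. The cause was not tested. Over the fits without 1 library, Irf9 ran from -0.35 to 0.32, Psmb8 from -0.51 to 0.023, Tap2 from -0.15 to 0.58, Tapbp from -0.29 to 0.47 and H2-K1 from -0.60 to 0.10. With a replicate block for libraries with neighbouring index numbers, 31 of all genes and 0 of the 36 passed. Same-block libraries correlated at 0.167, 0.232 and 0.0769 in their deviations from the group means, and each library correlated best with its own neighbour, a hint from the data only. Leaving out 1 library for the ratios was chosen after seeing the data. The log2 difference, p63KO minus WT, then ran from -1.41 to -0.77 for Psmb9 to Psmb6, from -1.17 to -0.73 for Psmb10 to Psmb7 and from 1.18 to 2.01 for Tap1 to Psmb9, while that of Psmb8 to Psmb5 changed sign (-0.070 to 0.51). The depth of the libraries is unknown.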
